A study of Danio rerio with 8 samples.

Results

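Cyclic AMP (cAMP) signalling runs through heterotrimeric G proteins, adenylyl cyclases, phosphodiesterases and protein kinase A (PKA), and 78 of the 19914 features measured in sorted zebrafish skin cells belong to these families by name. The members were chosen by symbol alone: genes whose symbol starts, in lower case, with the stem of a Gα, Gβ or Gγ subunit, an adenylyl cyclase (adcy), a phosphodiesterase (pde) or a catalytic or regulatory PKA subunit (prkac, prkar). Cells came from the flank dermis of adult, untreated zebrafish (Danio rerio) that carried both pnp4a:palmmCherry and pnp4a:nlsEos. These transgenes mark cell membranes and nuclei under regulatory sequence of pnp4a, a purine nucleoside phosphorylase gene that iridophores express strongly, and single cells high for both colours were sorted into plates, so cells of other types with an active pnp4a promoter could also pass. The stripe (labelled dark) and the interstripe (labelled light) were dissected and sorted apart, giving 4 libraries each and 8 in all, with skin of more than 1 fish combined. The deposited values pool the cells of all libraries into 5 clusters, c1 to c5, and by the study's account c5 holds mostly stripe iridophores, c3 mostly interstripe iridophores and c1 iridophores of both bands, while c2 and c4 were not called iridophores. The study found pigment cell markers lower in c2 and c4 and proposes that their cells may be incompletely differentiated.

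When a hormone or transmitter binds a receptor coupled to a G protein, the Gα subunit exchanges GDP for GTP and parts from the Gβγ pair, and both act on effectors. Gαs stimulates adenylyl cyclase and Gαi inhibits it, Gαq/11 activates phospholipase C, and Gα12/13 activates exchange factors of the GTPase RhoA. cAMP binds the regulatory subunits of PKA and frees the catalytic subunits, and phosphodiesterases end the signal by hydrolysing cAMP. In fish, pigment cells answer hormones and sympathetic norepinephrine through such receptors: a rise in cAMP disperses pigment granules in melanophores, α2-adrenergic receptors acting through Gαi aggregate them, and the spacing of the reflecting platelets of motile iridophores is under similar control.

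The clusters held 194 (c1), 176 (c2), 122 (c3), 82 (c4) and 72 (c5) cells, 646 in all. Each cluster is a single pooled sample with no map from cells to fish or library, and it was drawn from these same expression values, so no difference between clusters was tested and every value is a description. A share is the percentage of a cluster's cells with any count of the gene, and its exact Clopper-Pearson 95% interval covers counting error only. For a gene at 0 the limit given in place of an interval is 3 cells out of the cluster's total, which likewise covers counting error only. A level is the natural log (ln) of the corrected count plus 1, averaged over the cells that have the gene or over all cells, with its SD over cells. Values are not scaled for gene length, and genes are compared with each other only by the number of cells they were found in or by their differences between clusters. How well each gene's transcripts were captured was not measured and also acts on shares, so comparisons of shares between genes rank detection and not amount. The mean number of genes detected per cell was 789 in c1, 740 in c2, 846 in c3, 815 in c5 and 1395 in c4. The summed mean level of 6 iridophore markers reached 9.51 (c1), 10.1 (c3) and 8.45 (c5), gpnmb and pnp4a among them, against 5.09 in c2 and 6.51 in c4. The sums of the xanthophore markers (8 of 9 measured, among them pax7a and gch2) ran from 0.420 to 0.857 in c1, c3 and c5 and were 1.36 in c2 and 1.51 in c4. The 7 dermal fibroblast markers (among them col5a1, col1a2 and col1a1b) summed to 0.374 to 0.883 in c1, c3 and c5, 1.16 in c2 and 1.77 in c4, and the 7 keratinocyte markers to 0.213 to 0.263, 0.775 and 0.885. Schwann markers (among them sox10) ran from 0.780 to 1.72 over the 5 clusters and melanophore markers from 0.0963 to 0.334. Sums for immune, endothelial, neuron and photoreceptor markers ran from 0.0733 to 0.652, the highest being neuron markers in c4.

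Most genes of the pathway were found in some cells of every cluster, but few were found often. Of the 78 members, 52 were found in every cluster, a count not made over all features, and 67 stayed under 10% of cells in all of them. The other 11, or 14.1% of the members, reached 10% of the cells of at least 1 cluster, beside 13% of all features. They were the Gαi genes gnai1 and gnai2a, the Gαq/11 gene gna11b, the Gα12/13 genes gna12a and gna13a, the Gβ genes gnb1a and gnb1b, the Gγ gene gng5, the phosphodiesterases pde4ba and pde10a, and the PKA regulatory gene prkar2aa, called the frequent members here. No Gαs gene, adenylyl cyclase, cGMP phosphodiesterase or PKA catalytic gene reached it. A cell of c1 had on average 3.84 members, of c2 3.67, of c3 3.95, of c4 7.44 and of c5 4.21, which was 0.467 to 0.533% of the genes detected in it. At 0 cells were 2 members in c1, 4 in c2, 8 in c3, 4 in c4 and 16 in c5, where a count of 0 allows shares of up to 1.55, 1.70, 2.46, 3.66 and 4.17%, each being 3 cells of the cluster, so those zeros do not show absence. Such zeros were not counted over all features either, so they describe the members only.

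**Figure D1:**
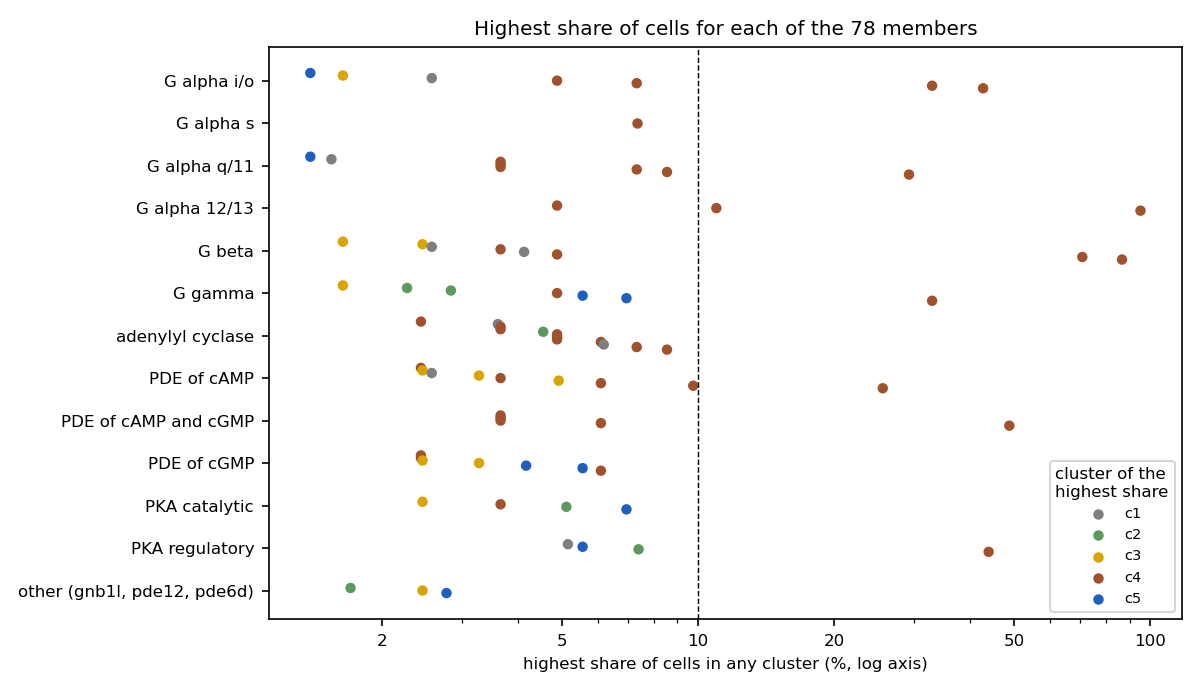
Highest share of cells in any of the 5 clusters (x axis, percent, log scale) for each of the 78 members, by family (rows), coloured by the cluster of that share; the dashed line is at 10%. Each family that passes the line does so with 1 or 2 genes, and 44 members (56.4%) have their highest share in c4, as do 45.1% of all features.

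Gβ genes were found more often than those of any other family, at 1.0 to 1.73 genes per cell over the 5 clusters. gnb1a and gnb1b, the duplicate zebrafish copies of the mammalian gene GNB1, encode the Gβ1 subunit. gnb1b was found in 56.2% (48.9 to 63.3%) of c1, 55.7% (48.0 to 63.2%) of c2, 48.4% (39.2 to 57.6%) of c3, 86.6% (77.3 to 93.1%) of c4 and 61.1% (48.9 to 72.4%) of c5 cells. Over the cells that had it, its mean was 2.81 ± 1.43 in c1, 1.59 ± 1.23 in c2, 3.16 ± 1.21 in c3, 1.48 ± 0.970 in c4 and 2.72 ± 1.50 in c5. Its share was highest in c4, and its level in those cells was lower in c2 and c4 than in c1, c3 and c5. gnb1a was found in 42.3% (35.2 to 49.6%) of c1, 39.2% (31.9 to 46.8%) of c2, 40.2% (31.4 to 49.4%) of c3, 70.7% (59.6 to 80.3%) of c4 and 44.4% (32.7 to 56.6%) of c5 cells. Its mean over expressing cells was 2.48 ± 1.19 in c1, 1.24 ± 0.928 in c2, 2.0 ± 1.08 in c3, 1.25 ± 0.886 in c4 and 2.21 ± 1.07 in c5. Like gnb1b it was highest in c4 by share and lowest in c2 and c4 by level, and how reads were divided between the duplicates was not measured. The other 6 Gβ genes stayed at or under 4.88% of cells, the highest being gnb3a in c4 (4 of 82 cells) and gnb2 in c1 (4.12%), and gnb3a was at 0 of 72 cells in c5.

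Gγ subunits, the small lipid-anchored partners of Gβ, were represented by 7 genes and led by gng5, found in 11.9% (7.67 to 17.3%) of c1, 7.39% (3.99 to 12.3%) of c2, 7.38% (3.43 to 13.5%) of c3, 32.9% (22.9 to 44.2%) of c4 and 18.1% (9.98 to 28.9%) of c5 cells. Where it was found, its mean was 2.61 ± 1.38 in c1, 1.89 ± 1.53 in c2, 2.28 ± 1.53 in c3, 1.18 ± 0.958 in c4 and 3.01 ± 1.49 in c5. Among c1, c3 and c5 the lowest share and level were in c3 and the highest in c5, with overlapping share intervals. The next Gγ genes were gng7, at most 6.94% (c5), and gng2, which was in 4 of 72 cells of c5 (5.56%) and 0 of 122 of c3, where 3 cells would be 2.46%.

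Among the Gα subunits, the inhibitory Gαi genes gnai1 and gnai2a were found more often than the single Gαs gene of the set. gnai1 was found in 16.5% (11.6 to 22.5%) of c1, 7.95% (4.42 to 13%) of c2, 18.0% (11.7 to 26.0%) of c3, 42.7% (31.8 to 54.1%) of c4 and 18.1% (9.98 to 28.9%) of c5 cells. Cells that had it averaged 2.52 ± 1.18 in c1, 1.38 ± 0.926 in c2, 2.53 ± 1.27 in c3, 1.22 ± 1.12 in c4 and 2.64 ± 1.11 in c5. Its share lay between 16.5 and 18.1% in c1, c3 and c5, below them in c2 and above them in c4, while its level was lower in both c2 and c4. gnai2a, another Gαi gene, was found in 9.79% (6.0 to 14.9%) of c1, 5.68% (2.76 to 10.2%) of c2, 9.02% (4.59 to 15.6%) of c3, 32.9% (22.9 to 44.2%) of c4 and 15.3% (7.88 to 25.7%) of c5 cells. Its level in those cells averaged 2.44 ± 1.15 in c1, 1.52 ± 0.630 in c2, 2.63 ± 0.951 in c3, 1.39 ± 1.24 in c4 and 2.75 ± 1.02 in c5. As with gnai1, its share was lowest in c2 and highest in c4 and its level was lowest in those 2 clusters, and its interval in c5 overlapped those of c1 and c3. The remaining Gαi/o genes stayed at 7.32% or less (gnao1a in c4), with gnai2b and gnai3 at most 1.64 and 1.39%. gnas, which encodes Gαs, was found in 3.09% of c1, 3.41% of c2, 4.10% of c3, 7.32% of c4 and 1.39% of c5 cells, 1 to 6 cells in each cluster. In every cluster both gnai1 and gnai2a were in more cells than gnas, and gnai1 was the more frequent of the pair.

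The Gαq/11 family of 8 genes was carried by gna11b, found in 8.25% (4.79 to 13%) of c1, 3.41% (1.26 to 7.27%) of c2, 13.1% (7.69 to 20.4%) of c3, 29.3% (19.7 to 40.4%) of c4 and 20.8% (12.2 to 32.0%) of c5 cells. The cells with gna11b averaged 2.65 ± 1.13 in c1, 1.41 ± 0.591 in c2, 3.01 ± 0.972 in c3, 0.870 ± 0.619 in c4 and 2.64 ± 1.28 in c5. Among the iridophore clusters it was most frequent in c5 and least in c1, and the share intervals of c1 and c5 overlapped narrowly. Next in this family by highest share were gna15.1 (8.54% of c4) and a gene listed under the name gna15.3 (7.32% of c4), a symbol that 2 rows share. In the gene order of the RefSeq annotation (GRCz12tu) gna11a, gna15.4 and 1 gna15.3 lie side by side and gna15.1 stands 1 gene from the other gna15.3, and how reads were assigned between these neighbours was not measured.

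The Gα12/13 family held gna13a, the member with the highest share of any in a single cluster. It was found in 49.5% (42.2 to 56.7%) of c1, 73.3% (66.1 to 79.7%) of c2, 60.7% (51.4 to 69.4%) of c3, 95.1% (88.0 to 98.7%) of c4 and 51.4% (39.3 to 63.4%) of c5 cells. In the cells that had it the mean was 1.20 ± 0.668 in c1, 2.09 ± 1.11 in c2, 1.30 ± 0.862 in c3, 3.14 ± 1.37 in c4 and 0.902 ± 0.350 in c5. Both measures were lowest in c1, c3 and c5, higher in c2 and highest in c4, and the share interval of c4 lay above those of the other 4 clusters. On the count scale, the mean ln level stands for a corrected count of 1.46 in c5, 2.31 in c1, 2.67 in c3, 7.09 in c2 and 22.2 in c4. In c1, c3 and c5 pooled, its level of 1.18 was low for its share, beside a median of 2.90 over 100 features within 10 points of that share. The c5 level of 0.902 lay near 0.693, the value of a corrected count of 1. In c4 its 3.14 stood above the median of 1.84 over 178 features of like share. gna12a, which encodes the other subunit class of this family, was highest in c4 at 11% and ran from 6.82 to 9.72% elsewhere. gna13b, the second copy of the Gα13 gene, was at most 4.88% (c4).

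**Figure D2:**
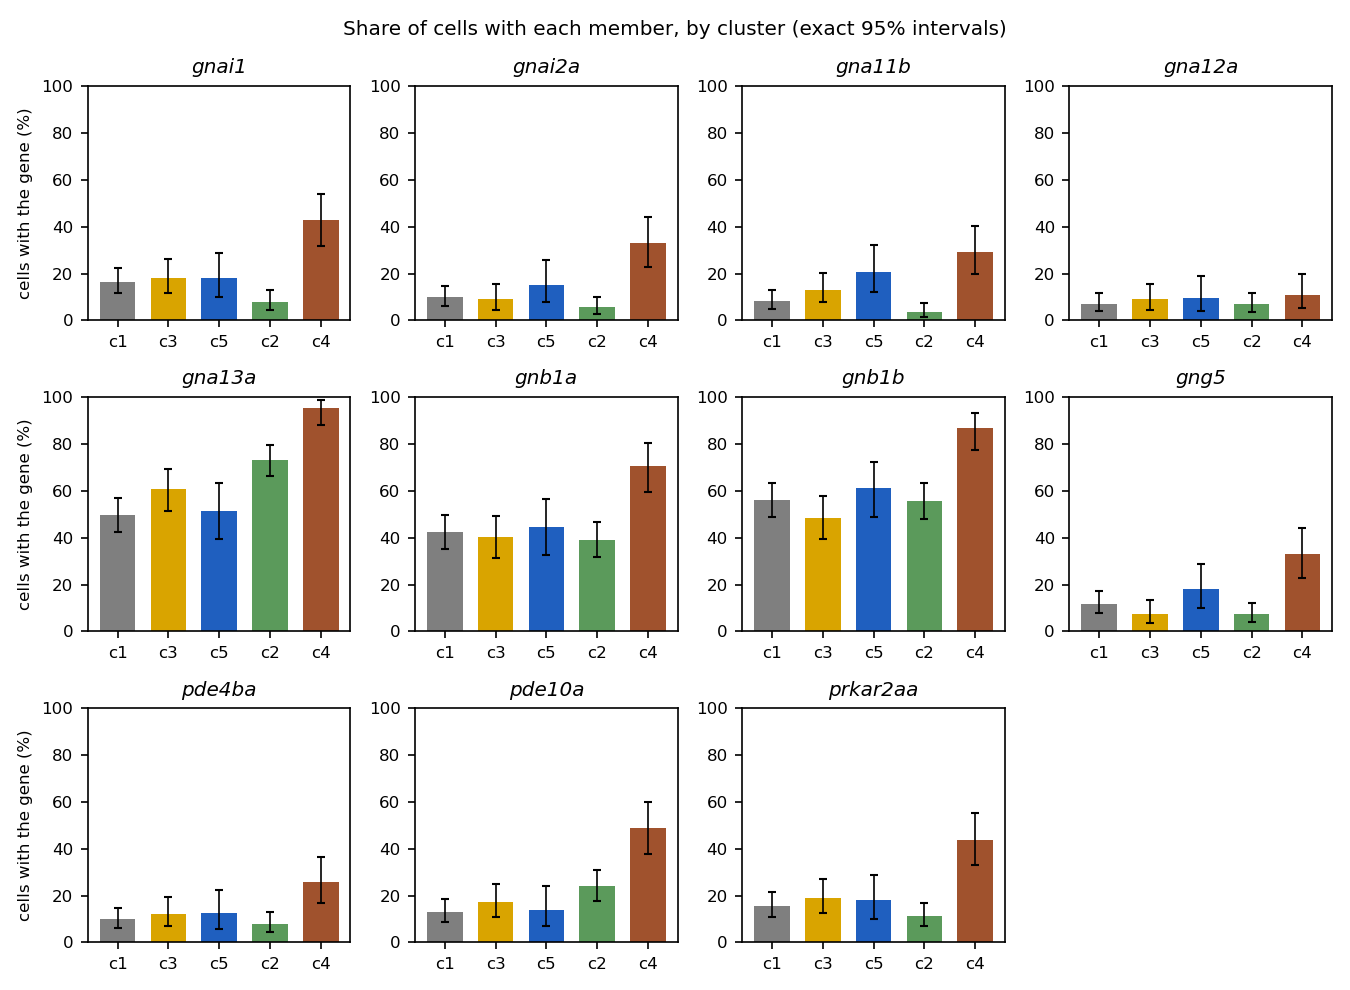
Share of cells with the gene (y axis, percent) in each cluster (x axis, iridophore clusters c1, c3 and c5 first) for the 11 members that reach 10% in any cluster; bars are the shares and whiskers exact 95% intervals. All 11 are highest in c4 (gna12a is among them only through its c4 share, so its place is set by the choice of members), and gna13a and pde10a alone are higher in c2 than in each of c1, c3 and c5. Set against the pooled iridophore cells, 99.0% of 1348 features found in 10% or more of those cells also had a higher c4 share. The direction is thus shared with most such features, and how many of them peak in c4 was not counted.

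Adenylyl cyclases, which make cAMP from ATP, were represented by 12 genes, and each was found in few cells. None reached 10% of any cluster. The highest shares were adcy7 with 8.54% of c4, adcy9 with 7.32% of c4 and adcy6a with 6.19% of c1. adcy7 was in 8 of 122 cells of c3 (6.56%) and 0 of 72 of c5, where 3 cells would be 4.17%, and this difference was not tested. Summed over the 12 genes, a cell had on average 0.325 cyclase genes in c1, 0.278 in c2, 0.311 in c3, 0.50 in c4 and 0.264 in c5. The family was thus found in small numbers in all 5 clusters and carried by no single gene.

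Phosphodiesterases end cAMP and cGMP signals. Of the 9 genes for enzymes specific to cAMP, pde4ba was found in 9.79% (6.0 to 14.9%) of c1, 7.95% (4.42 to 13%) of c2, 12.3% (7.05 to 19.5%) of c3, 25.6% (16.6 to 36.4%) of c4 and 12.5% (5.88 to 22.4%) of c5 cells. The level in these cells was 2.10 ± 1.22 in c1, 2.07 ± 0.947 in c2, 2.22 ± 1.30 in c3, 1.03 ± 0.741 in c4 and 1.18 ± 0.872 in c5. By share it was highest in c4, and by level it was lower in c4 and c5 than in c1, c2 and c3. pde4a came next, at 9.76% of c4. Of the 5 genes for enzymes that accept both nucleotides, pde10a was found in 12.9% (8.52 to 18.4%) of c1, 23.9% (17.8 to 30.9%) of c2, 17.2% (11 to 25.1%) of c3, 48.8% (37.6 to 60.1%) of c4 and 13.9% (6.87 to 24.1%) of c5 cells. Where present, its mean was 1.17 ± 0.654 in c1, 2.10 ± 1.02 in c2, 1.19 ± 0.823 in c3, 2.02 ± 1.42 in c4 and 1.11 ± 0.774 in c5. Like gna13a, and unlike the other 9 frequent members, it was higher in c2 and c4 than in the iridophore clusters on both measures. The 7 cGMP phosphodiesterase genes, which include the photoreceptor enzymes pde6a, pde6b and pde6c, stayed at 6.10% or less.

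Of the PKA genes, a single regulatory gene, prkar2aa, reached 10% of the cells of any cluster. prkar2aa, a type II regulatory subunit gene, was found in 15.5% (10.7 to 21.3%) of c1, 11.4% (7.08 to 17.0%) of c2, 18.9% (12.3 to 26.9%) of c3, 43.9% (33.0 to 55.3%) of c4 and 18.1% (9.98 to 28.9%) of c5 cells. Its level per expressing cell was 2.32 ± 1.18 in c1, 1.83 ± 1.25 in c2, 2.14 ± 1.08 in c3, 1.09 ± 0.899 in c4 and 1.94 ± 1.33 in c5. Its share was close in c1, c3 and c5 and highest in c4, where its level per expressing cell was lowest. The other regulatory genes were led by prkar1aa at 7.39% of c2. The 4 catalytic genes reached at most 6.94% (prkacab in c5) and 5.11% (prkacbb in c2), and a cell had on average 0.0852 to 0.125 of them. Lastly, gnb1l, pde12 and pde6d share the name stems but encode no G protein subunit or cyclic nucleotide phosphodiesterase as such (pde12 encodes a mitochondrial enzyme that shortens RNA tails and pde6d a carrier of lipid-anchored proteins), and none passed 2.78% of cells.

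**Figure D3:**
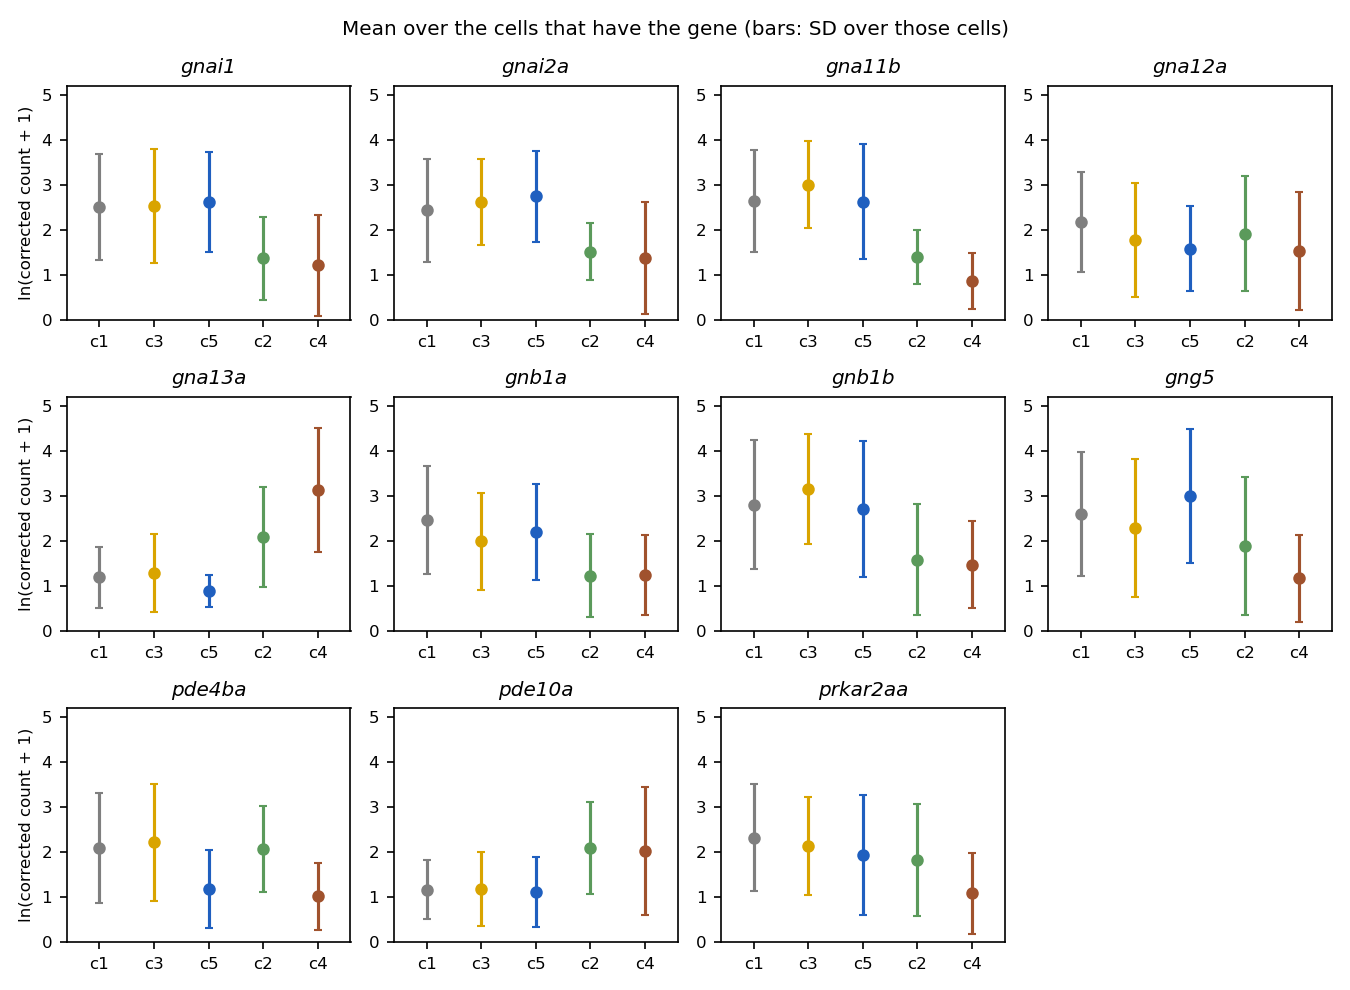
Mean ln(corrected count + 1) over the cells that have the gene (y axis) by cluster (x axis) for the same 11 members; bars are SD over those cells. For gna13a the means are 0.902 to 1.30 in c1, c3 and c5, 2.09 in c2 and 3.14 in c4, whereas for gnb1b they fall from 2.72 to 3.16 in the iridophore clusters to 1.59 and 1.48.

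Stripe and interstripe iridophores were compared through c5 and c3. No member differed by 0.5 ln units or more in its mean over all cells. 10 members reached a share of 10% in c5 or c3, and their differences, c5 minus c3, had a median of 0.077 beside 0.037 over the 1779 features that met the same minimum. Of the 10, 0 were higher by 0.5 or more, against 4.95% of all features, and 0 were lower, against 3.65%. gng5 lay farthest up, with a mean over all cells of 0.543 ± 1.32 in c5 against 0.169 ± 0.717 in c3, a difference of 0.37 that ranked at position 137 of the 1779 features. However, gng5 (7.38% of c3, 18.1% of c5) and gnai2a (9.02 and 15.3%) met the minimum only through c5, so their shares had to be higher there. With no minimum share the median over members was -0.0017. gna13a lay farthest down, at 0.464 ± 0.518 in c5 and 0.789 ± 0.925 in c3, a difference of -0.33. The Gαi genes differed by 0.02 (gnai1) and 0.18 (gnai2a), the Gβ genes by 0.18 (gnb1a) and 0.13 (gnb1b), and prkar2aa and pde10a by -0.05 each. Schwann markers summed to 0.829 in c3 and 1.72 in c5, and the 5 genes are given singly. mpz, a myelin gene, was in 2.46% of c3 and 16.7% of c5 cells, and sox10 and foxd3 were also in more c5 cells. By the study's account a sox10 transgene can label neural crest derivatives widely, and sox10 was in 20.5 to 57.3% of the cells of every cluster. mbpa and plp1a were each in 2.46% of c3 cells and in 0 and 1.39% of c5 cells. In c5, 3 cells would be 4.17%, so these 2 genes show no direction. The part of other cells in the members' differences was not tested.

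**Figure D4:**
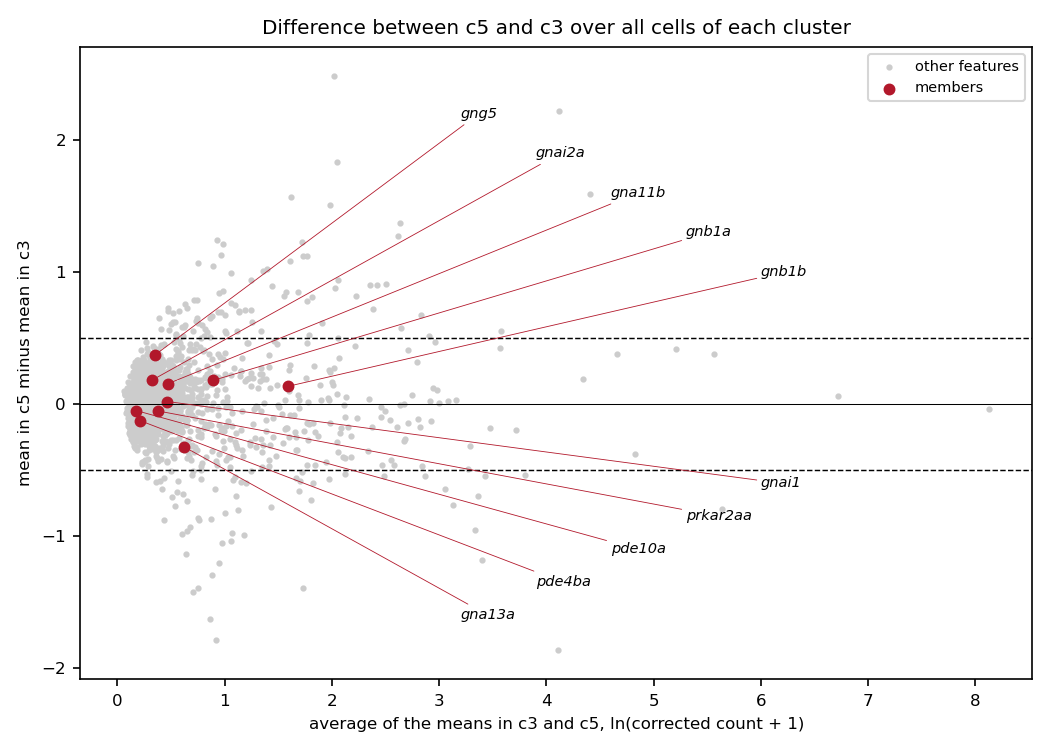
Mean over all cells in c5 minus c3 (y axis, ln units) against the average of both means (x axis) for the 1779 features with a share of 10% or more on either side; members are named in red and dashed lines mark differences of 0.5. All 10 members lie between -0.33 and 0.37, inside the lines.

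Against c1, the iridophore cluster of both bands, no member differed by 0.5 either. For c5 minus c1, 10 members had a median difference of 0.032 beside 0.051 over 1706 features, and they ran from -0.13 (gna13a) to 0.33 (gna11b). None of them was higher by 0.5, against 3.58% of all features, or lower, against 0.645%. Here gna11b (8.25% of c1, 20.8% of c5), gnai2a and pde4ba (9.79% of c1 each) met the minimum only through c5, so their shares had to be higher there. gna11b had a mean over all cells of 0.549 ± 1.22 in c5, 0.395 ± 1.08 in c3 and 0.219 ± 0.796 in c1. For c3 minus c1, 9 members had a median of 0.044 beside 0.028 over 1598 features, with a range from -0.24 (gnb1a) to 0.20 (gna13a). None was higher by 0.5, against 2.13% of all features, or lower, against 0.501%. In this comparison gna11b and pde4ba met the minimum only through c3, and gng5 only through c1.

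Cluster c2 had lower levels of most frequent members, as of most features, but higher gna13a and pde10a. It was compared with c1, c3 and c5 pooled, 388 cells. Its 10 members had a median difference over all cells of -0.18, the same as the -0.18 over 1438 features. One member, gna13a, was higher by 0.5 or more (0.90, against 1.6% of all features), and 1, gnb1b, was lower by as much (-0.69, against 12%). The share of cells with gnb1b was 55.7% in c2 and 54.6% in the pooled iridophore clusters, so its difference lay in the level of the cells that had it. pde10a was higher by 0.33. Both the share of cells and the level per expressing cell were higher in c2 for 2 of the 10 members, gna13a and pde10a, beside 9.25% of all features. The other 8 gave share differences from -9.31 points (gnai1) to 1.04 points (gnb1b), and 7 of the 10 had a lower level per expressing cell, beside 79.8% of all features.

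Cluster c4 had the frequent members in more cells and most of them at a lower level per cell, as it had most features. Of the 11, gna12a entered only through its c4 share and so had to be higher there. Among the 10 that reached 10% of the pooled iridophore cells, a minimum chosen after seeing the data, the share was higher in c4 for 10, as for 99.0% of 1348 features chosen in the same way, by a median of 26.2 points beside 25.2. Their level per expressing cell was lower for 8 of the 10, beside 94% of those features, by a median of -1.14 beside -1.35, and both measures were higher for 2, beside 5.64%. With a share of 10% or more on either side, the level per expressing cell was lower for 9 of the 11, beside 74.5% of 2371 features, by a median of -1.09 beside -1.16. Taken over all cells the members had a median difference of 0.079 beside 0.067. Of the 11, 2 were higher by 0.5 or more, gna13a by 2.36 and pde10a by 0.82, against 3.21% of all features, and 0 were lower, against 3.25%. The same 2 were higher in both share and level per expressing cell, beside 25.3% of all features. Cells of c4 also had 1.72 times as many detected genes as the pooled iridophore clusters, and over 1467 features with a share of 10% or more among all cells the median ratio of shares was 2.42, beside 2.44 for 10 members. The sums of xanthophore, fibroblast and keratinocyte markers were highest in c4 as well, and the part of these in the members' shares was not tested. Single genes of the lists differed. The means of gch2, col5a1 and krt4 were highest in c4, but pax7a was higher in c3 than in c4, and pdgfra and krt91 were higher in c2.

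**Figure D5:**
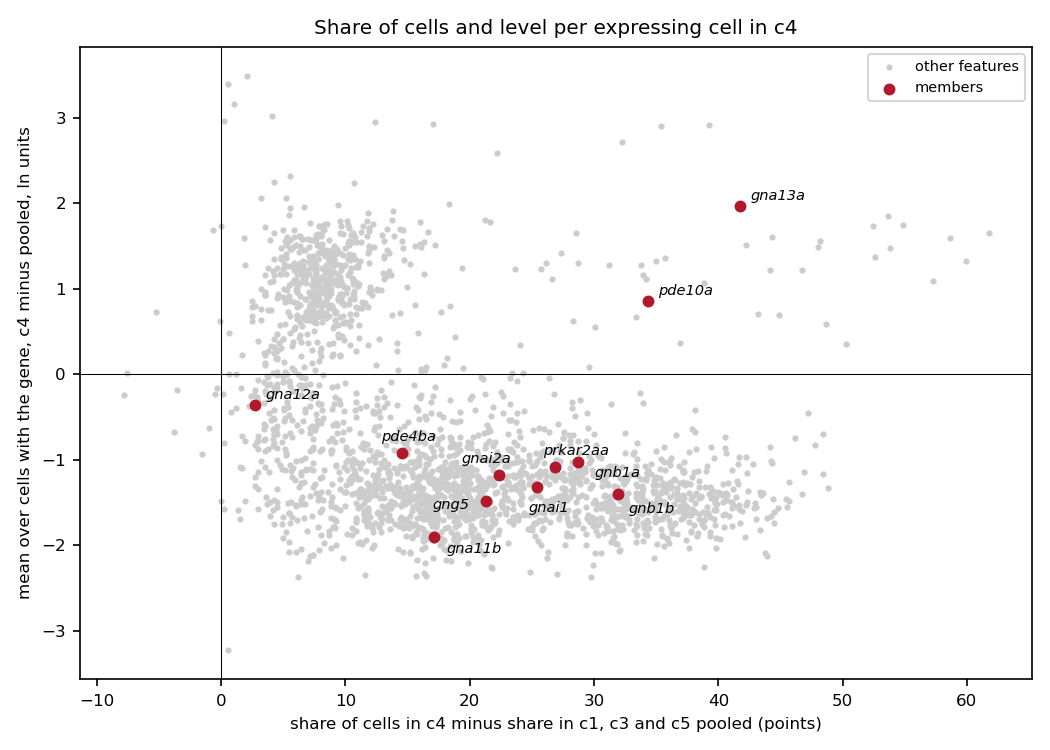
Share of cells in c4 minus share in c1, c3 and c5 pooled (x axis, percentage points) against the difference in mean over expressing cells (y axis, ln units) for features with a share of 10% or more on either side; members are named in red. 9 members lie below 0 on the y axis, as do 74.5% of all features shown, and gna13a (41.8 points, 1.96) and pde10a (34.3 points, 0.86) lie above it.

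gna13a and pde10a stood near the top of all features by their rise over the pooled clusters in both c2 and c4. By difference over all cells, gna13a ranked at position 12 of 2371 features by c4 minus pooled and at position 12 of 1438 by c2 minus pooled, and pde10a at 45 and 36. The 12 features with the largest rise in c4, gna13a the last of them, were chosen by that rise, so their high c4 values follow from the choice. All 12 were also higher in c2 than in the pooled clusters, beside 203 of 1438 features, and higher again in c4. Both differences subtract the same pooled values, so the c2 count is not independent of the choice. The 1438 features were not matched to the 12 by share. They were found in 53.4 to 99.7% of the pooled cells and at least 95.1% of c4 cells. Over the cells that had them, mean levels ran from 1.18 (gna13a) to 2.64 in the pooled clusters and from 3.14 (gna13a) to 5.92 in c4. Among the others were h1m, bsnb and cldn17 and loci named after clones, such as BX324216.3. How reads were assigned to these loci was not measured here, and its part in the pattern was not tested.

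Of the members' partners in the pathway, 1 gene differed by 0.5 or more between c5 and c3. Of 181 genes listed as receptors, exchange factors and chaperones, receptor kinases and arrestins, PKA inhibitors and other cAMP effectors, cAMP-responsive transcription factors and other G protein effectors, 136 were measured and 12 reached a share of 10% in c5 or c3. Their median difference was 0.11, beside 0.037 over all features, and it was -0.0057 with no minimum share. Some of them, arhgef12b and pkig included, met the minimum only through c5, and adra2b only through c3, so those shares had to be higher there. Of the 12, 1 was higher by 0.5 or more, against 4.95% of all features, and 0 were lower, against 3.65%. That gene was sik1, which encodes a salt-inducible kinase that acts on CREB coactivators and is itself induced by cAMP in mammals. It was in 23% of c3 and 63.9% of c5 cells, with a mean over all cells of 0.404 and 1.53, a difference of 1.13. In the other clusters it was in 33.0% of c1, 34.1% of c2 and 67.1% of c4 cells, with means of 0.825, 0.495 and 0.766. Of the Schwann markers, sox10, foxd3 and mpz were also higher in c5 than in c3, and mbpa and plp1a were in too few cells to show a direction. sox10 was frequent in every cluster, and was in 20.5% of c3 and 31.9% of c5 cells. The part of other cells in the sik1 difference was not tested. The other 3 frequent genes of the sik1 list (21 of 22 measured) stayed within 0.5. Of 47 measured receptors of 71 listed, gpr143, a receptor of pigment organelle membranes, differed by 0.10, and adra2b, an α2-adrenergic receptor, by -0.32. adra2b was found in 15.6% of c3 cells, 4.17% of c5 and 31.7% of c4. Among 18 of 20 chaperones and exchange factors the 2 frequent genes, arhgef1b and arhgef12b, differed by 0.12 and 0.02. The single frequent genes of the other lists were arrb2b, an arrestin (16 of 17 measured), at 0.17, pkig, a PKA inhibitor (14 of 25), at 0.22, and prkcea, a protein kinase C (20 of 26), at 0.09.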

How the data were processed

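Single cells of stripe and interstripe skin were sequenced in plates with molecular identifiers (UMIs). The authors trimmed reads with Cutadapt, aligned and counted them with STAR and STARsolo on GRCz11 with the Ensembl annotation, removed low-quality cells, mitochondrial features and spike-ins, normalized with SCTransform and clustered in Seurat. A step for doublets is not given in the sources used here. The first deposited table gives for each cluster, across all libraries, the count of its cells, the percent in which a feature was detected, and, on a natural log scale (corrected counts with 1 added), the average and spread among the detecting cells, as the authors computed them. The second deposited table holds the authors' own comparison of c5 with c3 (fold changes, p-values and cell fractions) and was not used. The depth of single libraries and cells was not analysed here.

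Means and SDs over all cells were rebuilt from these values, with cells lacking the gene at 0. The rebuilding was tested on simulated data. Clusters c1, c3 and c5 were pooled by number of cells. A difference was taken for features with a share of 10% or more on either side and counted at 0.5 ln units or more. With 1 pooled sample per cluster no test, p-value or estimate of biological spread could be had. All 78 member identifiers were found in the reference names and 76 in the RefSeq table.

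The members and lists were chosen with earlier results of these data known. Values in all clusters are given for members in at least 25% of cells of any cluster, or with a difference of at least 0.5 between c5 and c3. Other members in at least 10% are named with their highest share, and the rest only as examples by highest share or zero (up to 3 a family). Of each pathway list the genes past 0.5 are named or, with none, the 2 of highest mean. Up to 3 are named of each marker list, or more where its single genes are compared. Alternatives were another size (0.25, 1), minimum share (none, 25%), mean over expressing cells, and a difference in share of 10 points. Python 3.11.15, pandas 2.3.3, NumPy 2.4.6, SciPy 1.17.1 and matplotlib 3.10.9 were used.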

Additional observations from a re-analysis of the deposited data

Results flagged for a closer look

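The files hold 3 further genes of these families whose symbols are written in capitals, which the lower-case name rule does not take, and their signal stands outside the values above. PRKAR2B, a PKA regulatory subunit gene, was highest in c4 at 8.54% of cells (7 of 82, exact 95% interval 3.50 to 16.8%) and was at 0 of 72 cells in c5, where 3 cells would be 4.17%. PDE3B, a phosphodiesterase gene, was highest in c4 at 7.32% (6 of 82, 2.73 to 15.2%). GNAZ, a Gαi/o gene, was highest in c5 at 5.56% (4 of 72, 1.53 to 13.6%). None of the 3 reached 10% of any cluster, so with them included the number of members that did stayed at 11.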

How the results depend on the processing

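Counts below are members with a difference of at least the stated size, higher and then lower in the first cluster. Percentages in brackets are the same counts over all features. At a size of 0.25, c5 against c3 gave 1 and 1 (14.6 and 11.9%), c5 against c1 gave 1 higher (13.7%), c2 against the pooled clusters gave 2 and 4 (3.55 and 33.7%), and c4 gave 1 lower (5.82%). At a size of 1, c2 gave 0 and 0 (0.487 and 2.5%) and c4 gave 1 higher (1.52%). By the mean over expressing cells, c5 against c3 had a median of -0.13 with 1 and 1 (21.2 and 12.3%), c5 against c1 had 1 lower (10.7%), c2 had a median of -0.91 with 2 and 6 (8.48 and 57.2%), and c4 had a median of -1.09 with 8 lower (68.6%). By share of cells, with a difference of 10 points, c5 against c3 gave 2 higher (10.7%), c5 against c1 gave 1 higher (8.62%), c3 against c1 gave 1 higher (9.14%), c2 gave 0 lower (4.8%) and c4 gave 10 higher (70.7%). gnb1b in c2 turned from -0.69 ln units over all cells to 1.04 points by share. The pathway partners in c5 against c3 gave 1 lower at 0.25 (11.9%), 2 and 2 over expressing cells (21.2 and 12.3%) and 2 and 2 by share (10.7 and 12.1%). Without gna13a and pde10a, a setting chosen after seeing the data, 0 members were higher in c2 and 0 in c4. These counts follow from the choice, since no other member had been higher by 0.5 in either cluster. With the 10% minimum set on the pooled cells only, also chosen after seeing the data, the medians over all cells were -0.18 (c2) and 0.08 (c4). At a minimum of 5% of cells, 31 members counted as found, a count not made over all features and so not to be read as particular to the pathway. The other 80 main values and counts under an alternative moved by less than the spread over members, or 1.5 times for a count. Several medians among them still changed sign, so their direction was not stable. With no minimum share, c5 minus c3 went from 0.077 to -0.0017 and c5 minus c1 from 0.032 to -0.0032. At a minimum of 25%, c5 minus c1 went to -0.064, c3 minus c1 from 0.044 to -0.055, and the median share difference of c2 from -3.67 to 1.04 points. The cause of these changes was not tested. A member's share rests on 72 to 194 cells, so a gene in few cells has a wide interval, and no leave-one-out of a library was possible because the deposited values pool all libraries. No paired analysis was possible because no result comes from a test across samples and the clusters carry no replicate numbers.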
